A study of Mus musculus with 2 samples.

Results

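Roquin and AU-rich element decay regulators are proteins that bind the 3′ UTR of an mRNA and set how long it lasts, or that act on the proteins that do so. The set was chosen by gene symbol and held 10 of the 20002 genes in the table: Rc3h1, Rc3h2, Cnot1, Zfp36l1, Zfp36l2, Khsrp, N4bp1, Elavl1, Arid5a and Malt1. All 10 had at least 10 scaled reads in 1 library. The data came from whole kidneys of 14-week-old mice, with 1 RNA-seq library for a control and 1 for a Regnase-2 conditional knockout (Reg-2 CKO). The Reg-2 CKO was made by tail vein injection at 11 weeks of an AAV9 vector carrying a short hairpin RNA against Regnase-2, so it was a knockdown in which the gene itself was intact. The study's methods cite the preference of AAV9 for proximal tubules and name immunofluorescence as the measure of knockdown. The control received AAV9 without that hairpin, described by the study in one place as an empty vector and in another as a control hairpin. The age at harvest was given as 14 weeks for RNA-seq and as 16 weeks for the AAV9 mice in general. The study's methods describe RNA from a left kidney. The legend of the figure with the RNA-seq panel gives a number of mice per group for its quantitative data. Whether that number holds for each library was not stated in the sources used here. The control library held 38851231 reads and the CKO library 43588721. A read here is a unit of the deposited normalized values after a constant was subtracted from each library. The origin of that constant is not given in the sources used here, so the counting intervals below rest on taking these units as counts.

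Roquin-1 (Rc3h1) and Roquin-2 (Rc3h2) are paralogous proteins that recognise short stem-loops called constitutive decay elements and bring in the CCR4-NOT deadenylase, whose scaffold is Cnot1. Tristetraprolin (Zfp36) and its relatives Zfp36l1 and Zfp36l2, together with KSRP (Khsrp), bind AU-rich elements and shorten the life of mRNAs for cytokines and immediate early genes, whereas HuR (Elavl1) and Arid5a oppose decay. Regnase proteins are RNases that cut stem-loops of overlapping target mRNAs, N4BP1 is a related RNase, and the paracaspase MALT1 cleaves Regnase-1, the Roquins and N4BP1.

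The target gene of the knockdown, Zc3h12b, which encodes Regnase-2, had 47 control and 59 CKO reads. After scaling, its log2 ratio was -0.25, and the 95% Clopper-Pearson interval, which covers counting error only here and below, ran from -0.83 to 0.33. The interval spanned 0 and did not reach a 2-fold fall, so the target gene gave no check of the labels in whole kidney RNA. The ratio was 0.16 when the libraries were scaled to equal totals. Directions below are those between the library labelled control and the library labelled CKO.

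Because the mRNAs of decay regulators can carry decay elements themselves, the 3′ UTRs of the members were searched first. The motif of a constitutive decay element was taken as TTCNNNGAA with a pyrimidine, a purine and a pyrimidine in the loop, on the transcribed strand of the longest protein-coding transcript of each gene in GENCODE M21 (GRCm38). It occurred in 5 of the 10 members and in 5.80% of the 14724 genes with an annotated 3′ UTR. These shares are not matched for length: 9 of the 10 members had a 3′ UTR longer than the median of 1109.5 bases, and a longer sequence holds more matches. A stem of at least 6 Watson-Crick pairs around the loop was present in both Roquin genes and in none of the other members, and in 47 genes (0.319%) altogether. The minimum of 6 pairs was chosen after the sites of the members had been seen. Both Roquin sites are given here with the sites of Nfkbid, Nfkbiz and Fos, which are on the target lists and also met this minimum, and of the Roquin targets Ier3 and Icos and the member Cnot1, which had 5 pairs. Icos, with 23 and 55 reads, was at a log2 ratio of 0.65, from -0.05 to 1.44, and was named after its value had been seen. Hmgxb3, also on the Roquin target list, met the minimum too, and its site is not given. Capitals mark the loop and its paired stem.
Rc3h1, chr1:160971653-160971682, plus strand: agccaatAACTTCTGTGAAGTTgccttttc
Rc3h2, chr2:37373801-37373830, minus strand: tttaattAACTTCTGTGAAGTTgtttactc
Nfkbid, chr7:30428395-30428424, plus strand: tctaggtGATTTCTGTGAAATCgagcccac
Nfkbid, chr7:30428423-30428452, plus strand: acttgatTGTTTCTGTGAAACActctagag
Nfkbiz, chr16:55812606-55812635, minus strand: tgtaagTTGTTTCTATGAAACAAacccatt
Fos, chr12:85477071-85477100, plus strand: attaacaGTTTTCCATGAAAACgtttttat
Ier3, chr17:35822867-35822896, plus strand: agtatgtaTGTTCTGTGAACAcgaataaac
Icos, chr1:60999479-60999508, plus strand: agaacaaaATTTCTGTGAAATaaaatctgg
Cnot1, chr8:95719720-95719749, minus strand: atcgtaaaTGTTCCGTGAACAgctaggccc
The stem-loop in capitals was identical in Rc3h1 and Rc3h2, 15 bases long in each. A match is a description of the sequence and no test of binding.

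The members also differed in AU-rich sequence. The nonamer TTATTTATT, the core of many AU-rich elements, occurred in the 3′ UTR of 5 of the 10 members (Rc3h1, Rc3h2, Zfp36l1, Zfp36l2 and Elavl1) and in 7.84% of all genes with a 3′ UTR. Elavl1 had 8 overlapping or neighbouring copies, a number reached by 7 genes in all, itself included. The other 4 members had 1 copy each, as did Zfp36, and the sites of the 3 ZFP36 family genes are shown with the nonamer in capitals.
Zfp36l1, chr12:80108166-80108195, minus strand: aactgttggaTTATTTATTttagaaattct
Zfp36l2, chr17:84184913-84184942, minus strand: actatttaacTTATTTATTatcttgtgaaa
Zfp36, chr7:28376950-28376979, minus strand: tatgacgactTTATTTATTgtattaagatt
Arid5a, Cnot1, Khsrp, N4bp1 and Malt1 had no nonamer in the transcript used. The shorter pentamer ATTTA was found in all 10 members, from 1 copy in Cnot1 and in Khsrp to 25 in Rc3h2. The 3′ UTRs of Rc3h1 and Rc3h2 were long, 7181 and 5331 bases, longer than those of 98.8% and 96.6% of genes, and length raises the number of copies found. Since 9 of the 10 members had a 3′ UTR longer than the median, the nonamer shares of members and of all genes are not matched for length either.

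Levels per length of the longest transcript put Zfp36l1 first and Arid5a last among the members in both libraries. In RPKM, the reads of a library scaled to its total and divided by the length of the longest transcript, Zfp36l1 was at 22.9 in the control library and 56.9 in the CKO library. Zfp36l2, Cnot1 and Khsrp followed in the control library at 14.4, 13.3 and 11.7, then Elavl1 at 8.01 and N4bp1 at 4.78. Rc3h2 at 4.09, Malt1 at 4.07 and Rc3h1 at 3.51 lay close together, and Arid5a was at 0.229. Of the 9 pairs of neighbours in this order, only Rc3h2 and Malt1 had overlapping counting intervals in the control library. In the CKO library Malt1, at 4.42, stood below Rc3h1, at 4.57, with overlapping intervals, and the order of the other 8 members was as in the control library. The order depended on the transcript length used: with the median length of the annotated transcripts, 7 members changed place in each library, and Khsrp stood first and Zfp36l1 after it in the control library, while Arid5a was again the lowest. RPKM sets the library totals equal, which puts every member higher in the CKO library, and the ratios that follow use another scaling. Cnot1, the effector scaffold, was at 3.78 times the level of Rc3h1 in the control library.

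**Figure D1:**
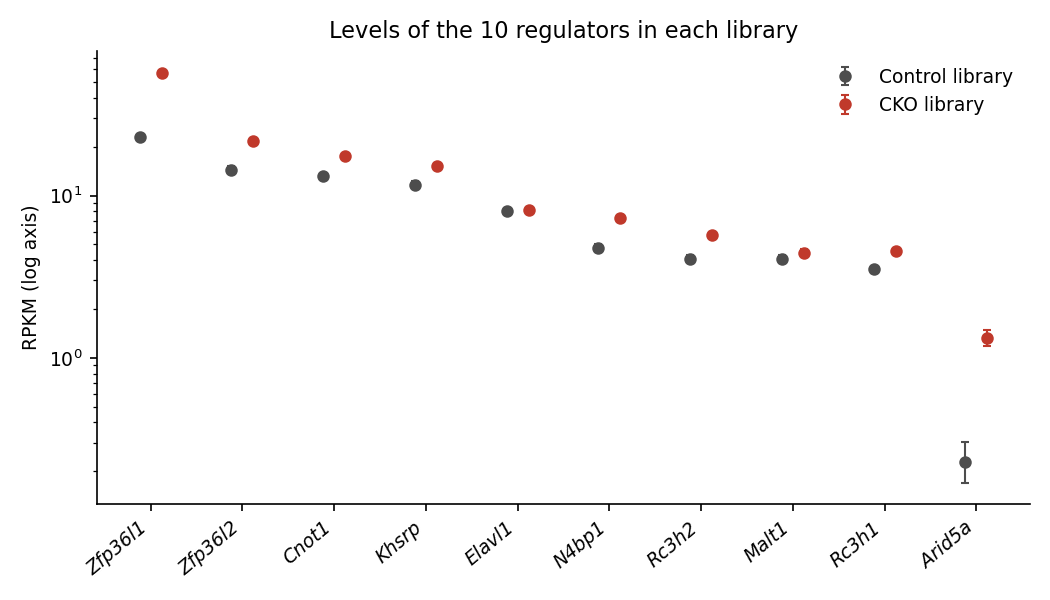
Level of each of the 10 members in the control library (grey) and the CKO library (red), in RPKM (reads over library total and length of the longest transcript) on a log axis, with 95% Clopper-Pearson intervals for counting error. By this length Zfp36l1 was the most abundant and Arid5a the least abundant in both libraries, and Arid5a rose from 0.229 to 1.33.

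Most of the members lay in the middle of the distribution of all genes, and Arid5a stood farthest from it. CKO reads were scaled by 0.667, which is what the control reads divided by the CKO reads came to for the median gene, and a gene was called at a 2-fold difference. At least 2-fold higher in the CKO library was 1 of the 10 members, beside 13.4% of the 17469 kept genes, those reaching 10 scaled reads in either library. At least 2-fold lower were 0 of the 10, beside 5.35%. The median log2 ratio of the members was 0.02, and that of all kept genes was 0.02. Between the lower and upper quartiles of all kept genes, -0.33 and 0.48, lay 7 of the 10, the others being Arid5a, Zfp36l1 and Elavl1. With 1 library per group there was no replicate check on any of these differences, and in whole kidney fewer cells of a type cannot be told apart from less RNA per cell.

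The sign of several members depended on the scaling. Equal totals moved the median of all kept genes by 0.42 on the log2 scale, and under that scaling all 10 members were above 0, as they were with the values as deposited. Under equal upper quartiles Rc3h1, Cnot1 and Khsrp turned to above 0. Relative to the median of all genes, 5 members were higher and 5 lower under every scaling tried. A scaling factor moves the members and that median by nearly the same amount, so this split could hardly change and is no check. Of all calls, 71.4% were in the higher direction with the median gene ratio and 89.9% with equal totals.

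**Figure D2:**
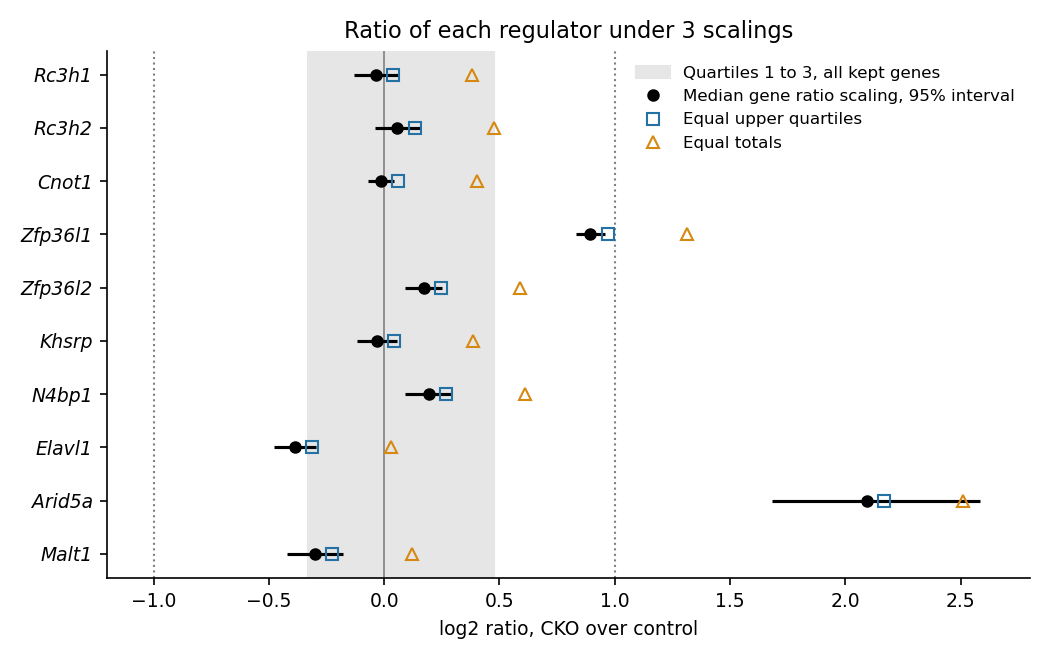
log2 ratio of CKO over control for each member, with its 95% Clopper-Pearson interval for counting error under the main scaling (black) and the values under equal upper quartiles (squares) and equal totals (triangles). Grey marks the range from the lower to the upper quartile of all kept genes and dotted lines mark 2-fold. Arid5a stood past 2-fold under all 3 scalings, Zfp36l1 only under equal totals, and Rc3h1, Cnot1, Khsrp, Elavl1 and Malt1 changed sign under equal totals, the first 3 of them under equal upper quartiles too.

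The Roquins and their effector were near the median of all genes. Rc3h1 (Entrez gene 381305, chr1:160906418-160974978) had 1499 control and 2194 CKO reads. Its log2 ratio was -0.04, with an interval from -0.13 to 0.06. Rc3h2 (chr2:37370069-37422903) had 1422 and 2220 reads, and its ratio was 0.06, from -0.04 to 0.15. Both intervals spanned 0, so a difference in either Roquin mRNA was not detectable at this depth under this scaling. Cnot1 had 4319 and 6414 reads and a ratio of -0.01, from -0.07 to 0.04. A ratio within 0.1 of that of Rc3h1 was found in 2675 other kept genes, and in 2712 for Cnot1, so these values were shared by many genes.

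Shares within a library do not depend on the scaling between libraries. Rc3h1 made up 51.3% of the reads of the Roquin pair in the control library (interval 49.5 to 53.1) and 49.7% in the CKO library (48.2 to 51.2), and the intervals overlapped. Cnot1 had 2.88 reads for each Rc3h1 read in the control library and 2.92 in the CKO library.

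The AU-rich element destabilisers divided. Zfp36l1 (Entrez gene 12192, chr12:80107754-80113013) had 2658 control and 7412 CKO reads. It was 1.86-fold higher after scaling (1.78 to 1.94), a log2 ratio of 0.89, below the 2-fold threshold, and at 1.31 with equal totals it was past it. Zfp36l2 (chr17:84183931-84187947) had 1981 and 3346 reads, and its ratio was 0.17, from 0.09 to 0.25. Khsrp had 1803 and 2644 reads and a ratio of -0.03, from -0.12 to 0.05. The share of Zfp36l1 in the reads of Zfp36l1 and Zfp36l2 was 57.3% in the control library (55.9 to 58.7) and 68.9% in the CKO library (68.0 to 69.8). These intervals did not overlap, so the balance of this paralog pair differed between the libraries by more than counting error, with no replicates to set it against. Zfp36, the founding family member, had 976 and 2752 reads and a ratio of 0.91, from 0.80 to 1.02. For each Zfp36l1 read there were 0.367 (control) and 0.371 (CKO) Zfp36 reads, and both intervals of the share of Zfp36 in this pair, 25.4% to 28.3% and 26.2% to 28.0%, overlapped.

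N4bp1, the Regnase-related RNase, had 1201 control and 2059 CKO reads, and its log2 ratio was 0.19, from 0.09 to 0.30. The other RNases with KH and PIN domains were Khnyn at 0.02 and Nynrin at 0.62. With N4bp1 they had a median of 0.19, and 0 of the 3 were called in either direction, beside 13.4% of all kept genes called higher and 5.35% lower. With equal totals 1 of the 3, Nynrin at 1.03, was called higher, and the median was 0.61. Malt1, on chromosome 18, had 1012 and 1234 reads and a ratio of -0.30, from -0.42 to -0.18, which turned to 0.12 with equal totals.

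The stabilisers lay at opposite ends of the members. Elavl1 (Entrez gene 15568, chr8:4285382-4325413) had 1787 control and 2050 CKO reads. It had the lowest ratio of the 10, -0.39 (-0.48 to -0.29), at percentile 21.9 of all kept genes, and with equal totals the ratio was 0.03. Within the libraries there were 1.49 (control) and 3.62 (CKO) Zfp36l1 reads for each Elavl1 read, a proportion free of the scaling. Arid5a (Entrez gene 214855, chr1:36307733-36324029) had 49 control and 319 CKO reads. It was 4.34-fold higher (3.21 to 5.99), a log2 ratio of 2.10 at percentile 96.2, and it ranged from 1.92 to 2.51 over the alternative pseudocounts, filters and scalings. The 3 kept genes nearest to Arid5a in mean level and ratio were Epsti1 with 50 and 323 reads, Adamts16 with 47 and 302, and Gcnt4 with 52 and 330, and 172 other kept genes had a ratio within 0.1 of that of Arid5a. For each Zc3h12a read, the Regnase-1 gene whose product Arid5a opposes, there were 0.422 (control) and 1.14 (CKO) Arid5a reads.

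**Figure D3:**
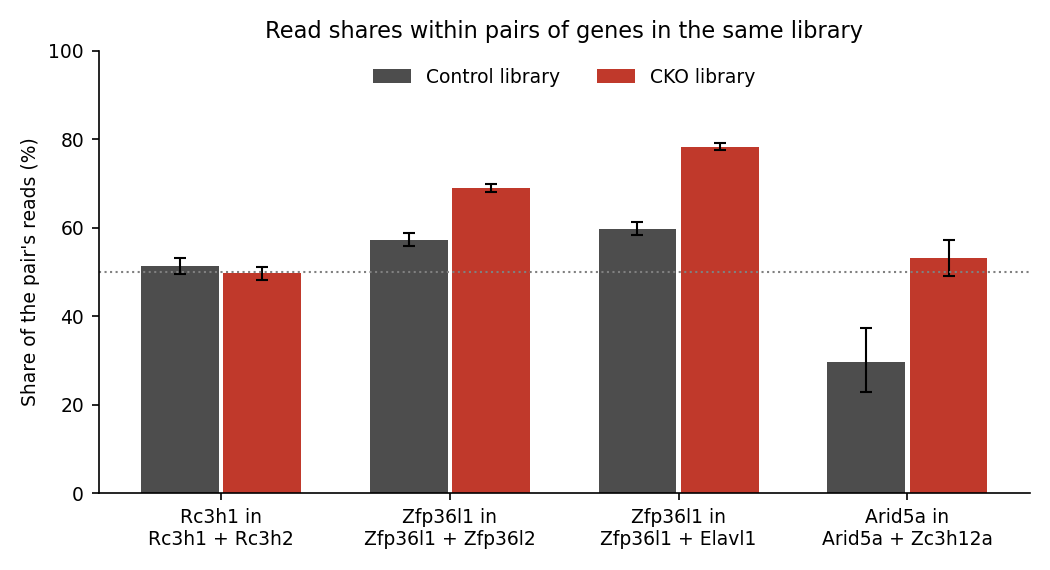
Share of the first gene in the reads of each pair, in percent, in the control library (grey) and the CKO library (red), with 95% Clopper-Pearson intervals for counting error and a dotted line at equal shares. The intervals overlapped for the Roquins and did not overlap for Zfp36l1 with Zfp36l2, Zfp36l1 with Elavl1 or Arid5a with Zc3h12a.

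The other Regnase genes were given beside the members because their targets overlap. The log2 ratio was 0.69 for Zc3h12a (Regnase-1, 116 and 281 reads), -0.49 for Zc3h12c (Regnase-3, 1985 and 2121 reads) and 2.59 for Zc3h12d (Regnase-4, 8 and 80 reads), the only 1 of the 4 past 2-fold, beside 13.4% of all kept genes called higher and 5.35% lower. Zc3h12c was the most abundant of the 4 per length, at 7.55 RPKM in the control library, and Zc3h12b was at 0.175. The decay regulators Hnrnpd (AUF1), Tia1 and Upf1, also assayed by PCR, had 1530, 800 and 1760 reads in the control library and ratios of 0.11, 0.56 and -0.26. With equal totals Zc3h12a at 1.10 and Zfp36 at 1.33 were past 2-fold, Upf1 was at 0.16 and Zc3h12c at -0.07.

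The general decay machinery with which the members work lay within 2-fold, apart from 1 deadenylation partner. Of all kept genes 13.4% were called higher and 5.35% lower. Of the 11 genes of the CCR4-NOT complex, 0 were called in either direction, and their median log2 ratio was 0.04, from -0.88 for Cnot11 to 0.19 for Cnot6. Cnot2 was the most abundant per length, at 13.3 RPKM in the control library, level with Cnot1. None of the 19 decapping and 5′ to 3′ decay genes was called (median 0.07), with Lsm4, the most abundant per length in the control library, as Ddx6 was in the CKO library, lowest at -0.77 and the exonuclease gene Xrn1 highest at 0.28. The 17 genes of the exosome and Ski complex had a median of -0.10, from -0.48 for Hbs1l, the most abundant per length, to 0.43 for Exosc8, and the 10 nonsense-mediated decay genes a median of -0.27, with Upf3b highest at 0.24 and Smg5 the most abundant per length, again with 0 called. Among 13 deadenylation partners of CCR4-NOT 1 was called, Btg2, an antiproliferative protein that binds the deadenylase, at 2.10, and the median was 0.18 with Tob1 lowest at -0.07. Pabpc1, the poly(A)-binding protein, was the most abundant of them per length. With equal totals the CCR4-NOT, decapping, exosome and nonsense-mediated decay genes again gave 0 calls, at medians of 0.46, 0.49, 0.32 and 0.15, so that the last 2 changed sign, and 2 deadenylation partners were called higher.

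Among 21 AU-rich element binding proteins outside the ZFP36 family, Elavl1 and Khsrp included, 2 were called higher and 2 lower, beside 13.4% and 5.35% of all kept genes, with a median of 0.00. With equal totals 4 were called higher and 1 lower. Celf2 was the highest at 1.61 and Igf2bp3, with 6 and 27 reads, was at 1.44. Elavl3, a mainly neuronal relative of Elavl1 with 46 and 18 reads, was the lowest at -1.85. Ybx1, the most abundant of them per length, had 30181 control and 21920 CKO reads and a ratio of -1.05, which was -0.63 with equal totals and no longer past 2-fold. Igf2bp3, Bcl10, Relb, Mapkapk3, Nfkbid, Nfkbiz and Fos were named after their values had been seen.

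Upstream of the members, the 7 genes of the CARD-BCL10-MALT1 complex had a median log2 ratio of 0.22. Malt1 was the lowest of the 7, and Card10, the most abundant per length, was at -0.16. Malt1 reads were 61.9% of those of Malt1 and Bcl10 in the control library and 53.1% in the CKO library, and the counting intervals did not overlap. Of the 9 MALT1 substrates, 2 were called higher, beside 13.4% of all kept genes, Tnfaip3 (A20) at 2.53 and Relb at 1.75, and Rbck1, the most abundant per length, was the lowest at -0.30, with a median of 0.19 that included Rc3h1, Rc3h2 and N4bp1. With equal totals 3 of the 9 were called higher. Of 11 kinases and ligases acting on decay factors, 2 were called higher, beside the same 13.4%, Ikbke at 1.49 and Mapkapk3 at 1.09, with a median of 0.08, Fbxw11 lowest at -0.46 and Mapk14 the most abundant per length at -0.34.

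Many transcripts on the lists of known targets were called higher. These lists were chosen with earlier results of these data known, so the counts are descriptions and no independent support. A gene below 10 control reads could also be kept through its CKO reads alone, as Nfkbid was. Of 8 Roquin-bound transcripts analysed, 5 were called higher and 0 lower, and their median log2 ratio was 2.54, beside 0.02 for all kept genes and 13.4% of them called higher. With equal totals 7 of the 8 were called higher. Ptgs2 was the highest with 11 and 175 reads and a ratio of 3.29, and Hmgxb3 was the lowest at -0.13. Nfkbid and Nfkbiz, whose stem-loops are shown above, had 6 and 86 reads and 181 and 1951 reads, and ratios of 3.06 and 2.84. Ier3, the most abundant of the list per length, had 380 and 2702 reads and a ratio of 2.24. Of 15 transcripts with AU-rich elements analysed, 13 had at least 10 scaled reads in 1 library, and 9 were called higher and 0 lower, with a median of 2.24. Il23a and Ccl3, which were not kept, were at 0.56 and -0.05 and were named after their values had been seen. Ccl2 was the highest with 13 and 1559 reads and a ratio of 6.22, Vegfa the lowest at -0.37, and Ccnd1, the most abundant, was at -0.32. Of 3 transcripts stabilised by ARID5A, 0 were called, with 2 kept at a median of 0.67, Stat3, the most abundant, at 0.41 and Tnfrsf4 at 0.94. With equal totals all 3 were kept at a median of 0.83, and Tnfrsf4 was called higher at 1.34. Ptgs2 and Ier3 were on both of the first lists.

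Genes that carry the motifs were then taken as a whole. The 47 kept genes with a decay element stem of at least 6 pairs had a median log2 ratio of 0.11, and 11 were called higher and 0 lower, 23.4% beside 14.3% of the 14268 kept genes with a 3′ UTR. Their median 3′ UTR was 1867 bases, beside 1123 for all, and they were not split by length. Gm4070 and Gvin1, both called higher at 2.08 with 3′ UTRs of 1421 bases, were counted separately, and whether they share reads was not tested. Values ran from -0.50 for D10Wsu102e, whose annotated 3′ UTR was 122583 bases, to 3.06 for Nfkbid, with 6 control reads. Gm4070 and Gvin1 were named after their values had been seen. Rc3h1 at -0.04 and Rc3h2 at 0.06 lay below the median of these 47 genes, and Hmgxb3, which also had such a stem, was at -0.13. The motif without a minimum of pairs gave no higher share: of the 844 kept genes with at least 1 copy 13.3% were called higher, beside 14.4% of those without, and both medians were 0.04. Genes with at least 1 AU-rich nonamer, 1108 in number, had a median of 0.12, beside 0.03 for the 13160 without, and 13.6% of them were called higher, beside 14.3%. The share called higher was 12.9% of the 874 genes with 1 copy and 16.2% of the 234 with 2 or more. In the top band of 3 bands of 3′ UTR length the medians were 0.12 with and 0.05 without the nonamer, and 12.1% and 12.6% were called higher. With and without the nonamer the medians were 0.13 and 0.06 in the middle band, and 0.07 and -0.03 in the short band. The share called higher was 17.9% with and 14.5% without it in the middle band, and 11.2% and 15.8% in the short band, so its direction differed between bands.

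**Figure D4:**
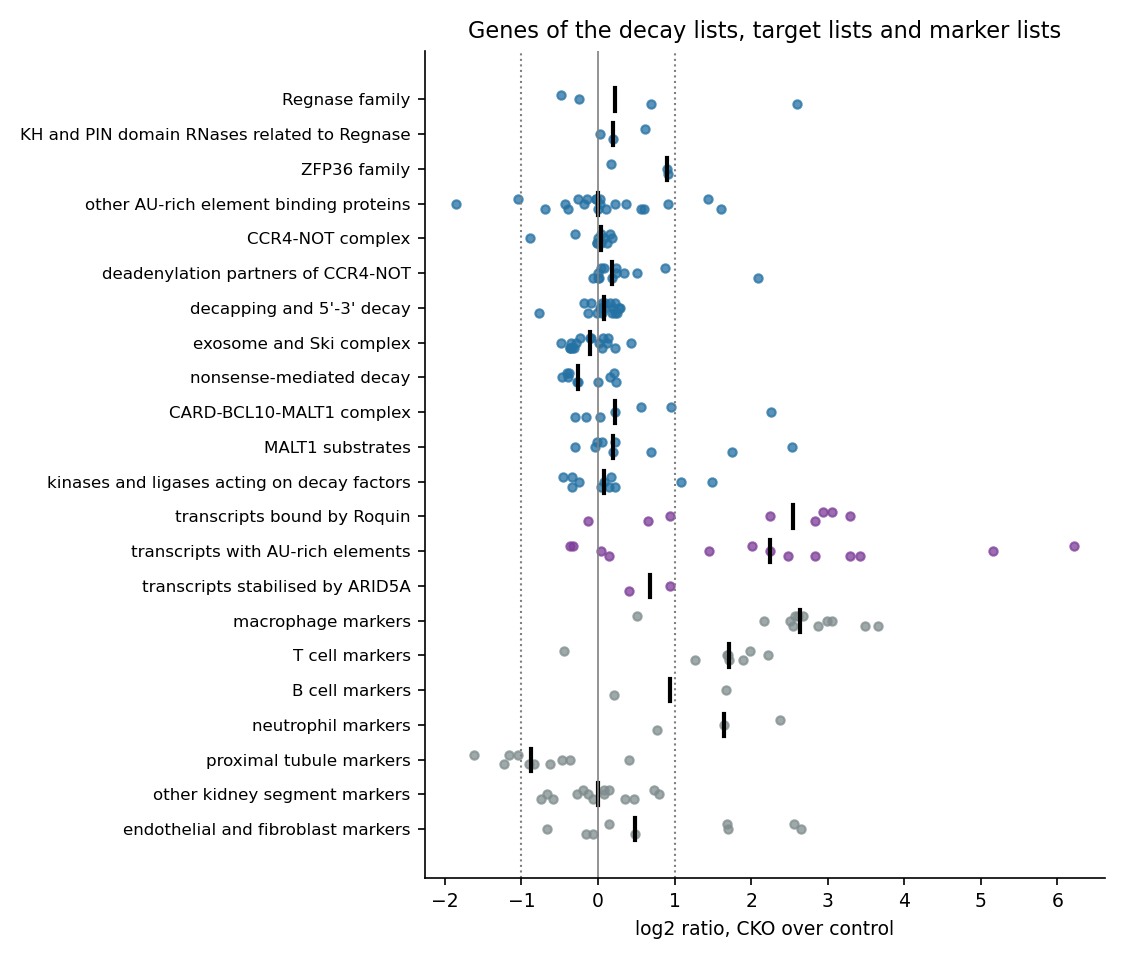
log2 ratio of CKO over control of each kept gene (points) in the decay pathway lists (blue), the target lists (purple) and the marker lists (grey), with each list's median as a black bar and 2-fold as dotted lines. The CCR4-NOT, decapping, exosome and nonsense-mediated decay genes lay within 2-fold, while the Roquin-bound and AU-rich lists had medians of 2.54 and 2.24, near the macrophage list at 2.64.

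The cell type marker lists differed in direction. Most macrophage and T cell markers were called higher, 4 of 10 proximal tubule markers were called lower, and no marker of the other kidney segments was called. Of 12 macrophage markers 11 were called higher and 0 lower, beside 13.4% and 5.35% of all kept genes here and for the lists that follow, with a median log2 ratio of 2.64. Their summed level was 172 CPM (reads scaled to the library total) in the control and 1197 CPM in the CKO, and Cd74 was the most abundant, with 2610 and 23956 reads. Csf1r, the lowest, was the 1 not called, with 2244 and 4803 reads and a ratio of 0.51. Of 8 T cell markers analysed 7 were called higher, with a summed level of 5.02 and 14.8 CPM and Trac the most abundant per length. Trac was the 1 not called, with 99 and 109 reads and a ratio of -0.44, from -0.85 to -0.04. Of 2 B cell markers analysed 1 was called higher, with summed levels of 3.42 and 13.1 and Ighm the most abundant, and of 3 neutrophil markers analysed 2 were, with summed levels of 1.08 and 5.96 and S100a9 the most abundant per length. With equal totals all 3 neutrophil markers were called higher. Of 10 proximal tubule markers 4 were called lower and 0 higher, with a median of -0.87, summed levels of 16841 and 11729 CPM, and Slc27a2 with the most reads. With equal totals 1 of these 10 was called lower and their median was -0.45. A list of 14 markers of other kidney segments also held podocyte genes and the endothelial genes Emcn, Pecam1 and Kdr, which are counted again in the next list. Of these 14, 0 were called, with a median of 0.01, summed levels of 4163 and 6709, and Umod the most abundant, and with equal totals 2 were called higher. Of 9 endothelial and fibroblast markers 4 were called higher, with a median of 0.48 and summed levels of 307 and 772, Kdr having the most reads in the control library and Col3a1 in the CKO library. The 4 called were the fibroblast or mural genes Col1a1 at 2.65, Col3a1 at 2.56, Acta2 at 1.70 and Dcn at 1.69. Pdgfrb, a mural and fibroblast gene, was at 0.48 and not called, and the endothelial genes Kdr, Cdh5, Pecam1 and Emcn were at -0.67, -0.16, -0.07 and 0.14. Acta2, Dcn, Pdgfrb, Cdh5, Pecam1 and Emcn were named after their values had been seen. The lowest value in each library stood for 1 read, so no marker was at 0. The part of these cell types in the ratios of Arid5a, Zfp36l1 and the target transcripts was not tested.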

How the data were processed

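RNA from whole kidneys was made into libraries with a stranded mRNA kit. Per the labels, the authors used STAR 2.7.3a, HTSeq and DESeq2 with mm10, and they deposited a normalized score per gene in whole numbers for 1 control and 1 CKO library. A constant of unknown origin (34 and 50, the column minimum less 1) was subtracted to give reads, and CKO reads were scaled by 0.667. Log2 ratios used a pseudocount of 1. A gene was kept if it reached 10 scaled reads in either library, and calls used 2-fold. With 1 library per group no test was made. Intervals are exact 95% Clopper-Pearson, for counting error only (scipy 1.17.1). The calculation was tested on simulated data. Symbols were matched to GENCODE M21 for 17820 of 20002 genes. Named were the members, the Regnase genes, 4 genes measured by PCR, the extreme and most abundant genes of each list, and the 3 genes nearest to Arid5a. The members and lists were chosen with earlier results of these data known. Of the 221 list genes, 18 were not analysed here. Alternatives covered pseudocount, filter, scaling, subtraction and threshold. In the pathway lists, 2 genes are not reported here by themselves; the medians include them.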

Additional observations from a re-analysis of the deposited data

How the results depend on the processing

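No paired analysis was possible because there was a single library for either group, and for the same reason no difference had a replicate check. The pseudocounts of 0.1 and 10, the filters, the column minimum subtracted and the median of kept genes set to 0 left every member on its side of 0 and of 2-fold. The filters could not change a member's ratio, since all members were kept under each. The last 2 settings each shifted the median of kept genes by only -0.02. These settings were therefore weak checks of the members. With equal totals 2 members were called higher (Zfp36l1 and Arid5a), the median log2 ratio of members was 0.44, and 3870 genes were called higher and 437 lower. With the values as deposited, which hold the added constants and no scaling, 2 members were called higher, the median of members was 0.61, and the genes called were 3574 and 131. At 1.5-fold 2 members and 3801 genes were called higher and 2423 genes lower, and at 4-fold 749 and 166 genes. With at least 50 scaled reads 617 genes were called lower, since fewer genes were counted. Of 80 recomputed member ratios, 20 moved beyond their counting interval, 9 under equal totals, 9 as deposited and 2 under equal upper quartiles, and of 176 list medians 42 did. The 80 include 10 under the filter of 50 scaled reads, which could not move. Arid5a was past 2-fold higher under every setting. Its 49 control reads limit its precision most among the members.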

Other observations

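Summed over the members by role, the destabilisers Rc3h1, Rc3h2, Zfp36l1, Zfp36l2, Khsrp and N4bp1 had 10564 control and 19875 CKO reads, and the stabilisers Elavl1 and Arid5a had 1836 and 2369. The destabilisers thus had 5.75 reads for each stabiliser read in the control library and 8.39 in the CKO library, and Zfp36l1 gave most of the added reads. The stabiliser sum was mostly Elavl1, 1787 and 2050 reads, and Arid5a, the other stabiliser, was 4.34-fold higher, so the pooled proportion does not describe both. All 10 members together took 456 and 686 CPM, the reads scaled to the library total.

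Zc3h12c, the most abundant Regnase gene per length, had 1.32 reads for each Rc3h1 read in the control library and 0.967 in the CKO library. This proportion is free of the scaling, and the shares of Zc3h12c in the pair, 57.0% (55.3 to 58.6) and 49.2% (47.7 to 50.7), did not overlap in their counting intervals.

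The hairpin against Regnase-2, as its 21 bases read in the extracted text of the study's methods, was compared with GENCODE M21 transcripts on both strands. The longest run it shared with any Zc3h12b transcript was 9 bases, the same as with Zc3h12a and Zc3h12d. It was 8 bases with Zc3h12c and 14 bases over all transcripts. The PCR primers listed for Zfp36, Hnrnpd, Tia1 and Upf1, 8 in all, gave 0 exact matches to transcripts of those genes, with longest shared runs of 7 to 10 bases, whereas both primers of Inmt and of Cxcl1 matched exactly. Whether the extracted letters are those the study used was not tested.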
